A study of Arabidopsis thaliana with 12 samples.

Results

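The 10 genes described here encode the ethylene receptors and the core of the pathway behind them, and they were selected by name out of 23784 genes counted, with the level of one of them, ETR2, being highest in octuple as part of the reason for the choice. The gaseous hormone ethylene binds receptors in the endoplasmic reticulum membrane that act as negative regulators: without ethylene they keep the protein kinase CTR1 active, and CTR1 phosphorylates the membrane protein EIN2 and holds it inactive. When ethylene binds, CTR1 is switched off, the C-terminal end of EIN2 is released, and the transcription factor EIN3 and its close relative EIL1 escape destruction and switch on ethylene-responsive genes. The F-box proteins EBF1 and EBF2 mark EIN3 and EIL1 for degradation, and in Arabidopsis several receptor genes and EBF2 are themselves induced by ethylene, so that the pathway dampens its own output. Ethylene also takes part in defence and in leaf senescence.

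Aerial parts of Arabidopsis thaliana seedlings grown under long days were profiled by RNA-seq, and each library came from a pool of 20 to 30 seedlings. There were 4 genotypes with 3 libraries each. The octuple mutant carried cbp60b;c;d;e;f together with eds1;pad4;ndr1, the quintuple mutant carried cbp60b;c;d;e;f alone, epn carried eds1;pad4;ndr1 alone, and WT was Columbia-0, which is the background of all the mutants. CBP60b to CBP60f are related calmodulin-binding proteins that act in transcription of immune genes, whose combined loss gives an autoimmune seedling, and EDS1, PAD4 and NDR1 are components of signalling downstream of intracellular immune receptors. Plants of quintuple die early, at about the age of the seedlings sampled. From bulk samples a different number of cells of a type and a different amount of RNA per cell cannot be told apart.

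Between 38698646 and 44294404 fragments were counted per library, and a level of 3 counts, the most that a count of 0 allows for counting error, was between 0.0677 and 0.0775 CPM (counts relative to library size) before TMM scaling. All other CPM values given are TMM-scaled. Replicate 3 of every genotype stood apart from replicates 1 and 2, with a chi-square per degree of freedom of at least 343 against the other libraries of its genotype and of 33.97 to 60.7 between replicates 1 and 2. Results are therefore also given from replicates 1 and 2 alone where a call of the 10 genes changed, and for some of the other genes listed. EDS1 was at 5.91 to 8.87 CPM in octuple and 4.14 to 6.56 CPM in epn, and was at 71.0 to 120 CPM in quintuple and 17.9 to 23.2 CPM in WT. RNA of the CBP60 genes was present in every library, and CBP60b was highest in quintuple, at 154 to 248 CPM. CBP60c was at 26.8 to 31.7 CPM in octuple and 29.5 to 35.1 CPM in quintuple. It was higher, without overlap, in epn (47.9 to 51.9 CPM) and WT (42.8 to 47.5 CPM). CBP60b, CBP60d, CBP60e and CBP60f were not lower in both mutants in this way, so only the CBP60c level went with the cbp60 labels. The summed level of 5 root markers was at most 0.612 CPM in any library, while 4 leaf markers summed to 28707 to 49511 CPM in octuple, 3445 to 17828 CPM in quintuple, 33425 to 52626 CPM in epn and 33353 to 54285 CPM in WT. Of the leaf markers, LHCB1.1 and LHCB2.1 were far lower in replicate 3 of every genotype. LHCB1.1 was at 7128, 8330 and 14.3 CPM in octuple replicates 1 to 3, and at 9011, 9361 and 37.9 CPM in those of WT. The other leaf markers, RBCS1A and RCA, differed less between replicates. The summed level of 6 senescence markers was 62.5 to 194 CPM in octuple, 980 to 1071 CPM in quintuple, 6.24 to 16.8 CPM in epn and 4.71 to 25.4 CPM in WT, and that of the immune markers PR1, PR2 and PR5 was 952 to 1241, 7302 to 12710, 10.0 to 22.9 and 15.6 to 118 CPM in the same genotypes. In octuple SAG13 and WRKY53 averaged 77.2 and 26.4 CPM. The other senescence markers averaged at most 3.70 CPM there, and all but NAC092 were above their epn and WT means. In edgeR's quasi-likelihood test 5 could be tested. At an adjusted p below 0.05, 1 was higher in octuple against epn (2.47% of all genes) and 1 against WT (1.99%). With the replicate number as a block it was 2 (8.52%) and 3 (10.0%). These marker levels moved with the quintuple results below, and their part in them was not tested.

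In the 250 bases before the annotated gene start, 5 of the 10 genes held ATGTAC or ATGTAT on either strand, the 6-letter words that form the core of the site EIN3 binds, against 30.2% of the promoters of 27443 protein-coding genes. GCCGCC, the GCC box bound by ERF proteins, was in 0 of the 10 windows and in 1.87% of all promoters. The genes with an EIN3 core were ETR2, ERS2, EIN2, EIN3 and EBF2, and a match is a description of letters, not evidence of a site. Windows are printed for the 3 of these genes whose own mean level was higher in octuple than in the other genotypes. That picks them by the level that was also used to choose ETR2. They show the match in its surroundings, from the RefSeq sequence of build TAIR10.1, 5′ to 3′ on the strand of the gene, with the match in capitals. That of ETR2 is chr3:8254309-8254558 on the plus strand with a match starting 91 bases before the gene, that of ERS2 is chr1:1157814-1158063 on the minus strand with a match 39 bases before the gene, and that of EBF2 is chr5:8797350-8797599 on the minus strand with a match 65 bases before the gene.
ETR2: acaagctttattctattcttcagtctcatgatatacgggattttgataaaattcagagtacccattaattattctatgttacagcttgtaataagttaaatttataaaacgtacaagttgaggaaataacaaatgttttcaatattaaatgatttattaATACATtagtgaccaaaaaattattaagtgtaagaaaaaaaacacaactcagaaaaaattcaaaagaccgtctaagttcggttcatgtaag
ERS2: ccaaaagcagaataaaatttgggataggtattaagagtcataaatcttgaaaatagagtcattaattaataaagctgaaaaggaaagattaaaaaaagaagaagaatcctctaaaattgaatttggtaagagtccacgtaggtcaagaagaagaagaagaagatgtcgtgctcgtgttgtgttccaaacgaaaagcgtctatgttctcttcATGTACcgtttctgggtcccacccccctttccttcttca
EBF2: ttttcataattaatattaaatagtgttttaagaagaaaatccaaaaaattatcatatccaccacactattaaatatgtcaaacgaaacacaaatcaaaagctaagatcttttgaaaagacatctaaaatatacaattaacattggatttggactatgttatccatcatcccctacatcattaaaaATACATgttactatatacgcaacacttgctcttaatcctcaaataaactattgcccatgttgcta
The capitals ATACAT are ATGTAT read on the other strand.

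Levels are given first for the 5 receptors. They fall into subfamily I (ETR1 and ERS1), which has the conserved histidine kinase domain, and subfamily II (ETR2, ERS2 and EIN4), whose kinase domains lack some of the conserved histidine kinase residues. ETR2 (AT3G23150, chr3:8254559-8257888) was the receptor whose level in octuple was used in choosing these genes. It was at 19.2, 15.5 and 9.22 CPM in octuple, 6.50, 11.3 and 6.79 CPM in quintuple, 3.52, 4.27 and 4.14 CPM in epn, and 4.85, 3.24 and 4.64 CPM in WT. Every octuple library was above every epn and WT library, and the lowest octuple library, replicate 3, was below the highest quintuple library, replicate 2. The log2 fold change of ETR2 in octuple was 1.79 against WT, 1.87 against epn and 0.87 against quintuple, and since this difference chose the gene it carries no test. In replicates 1 and 2 alone these values were 2.11, 2.16 and 0.99. The measured counts behind ETR2 were between 129 and 796 fragments per library.

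**Figure D1:**
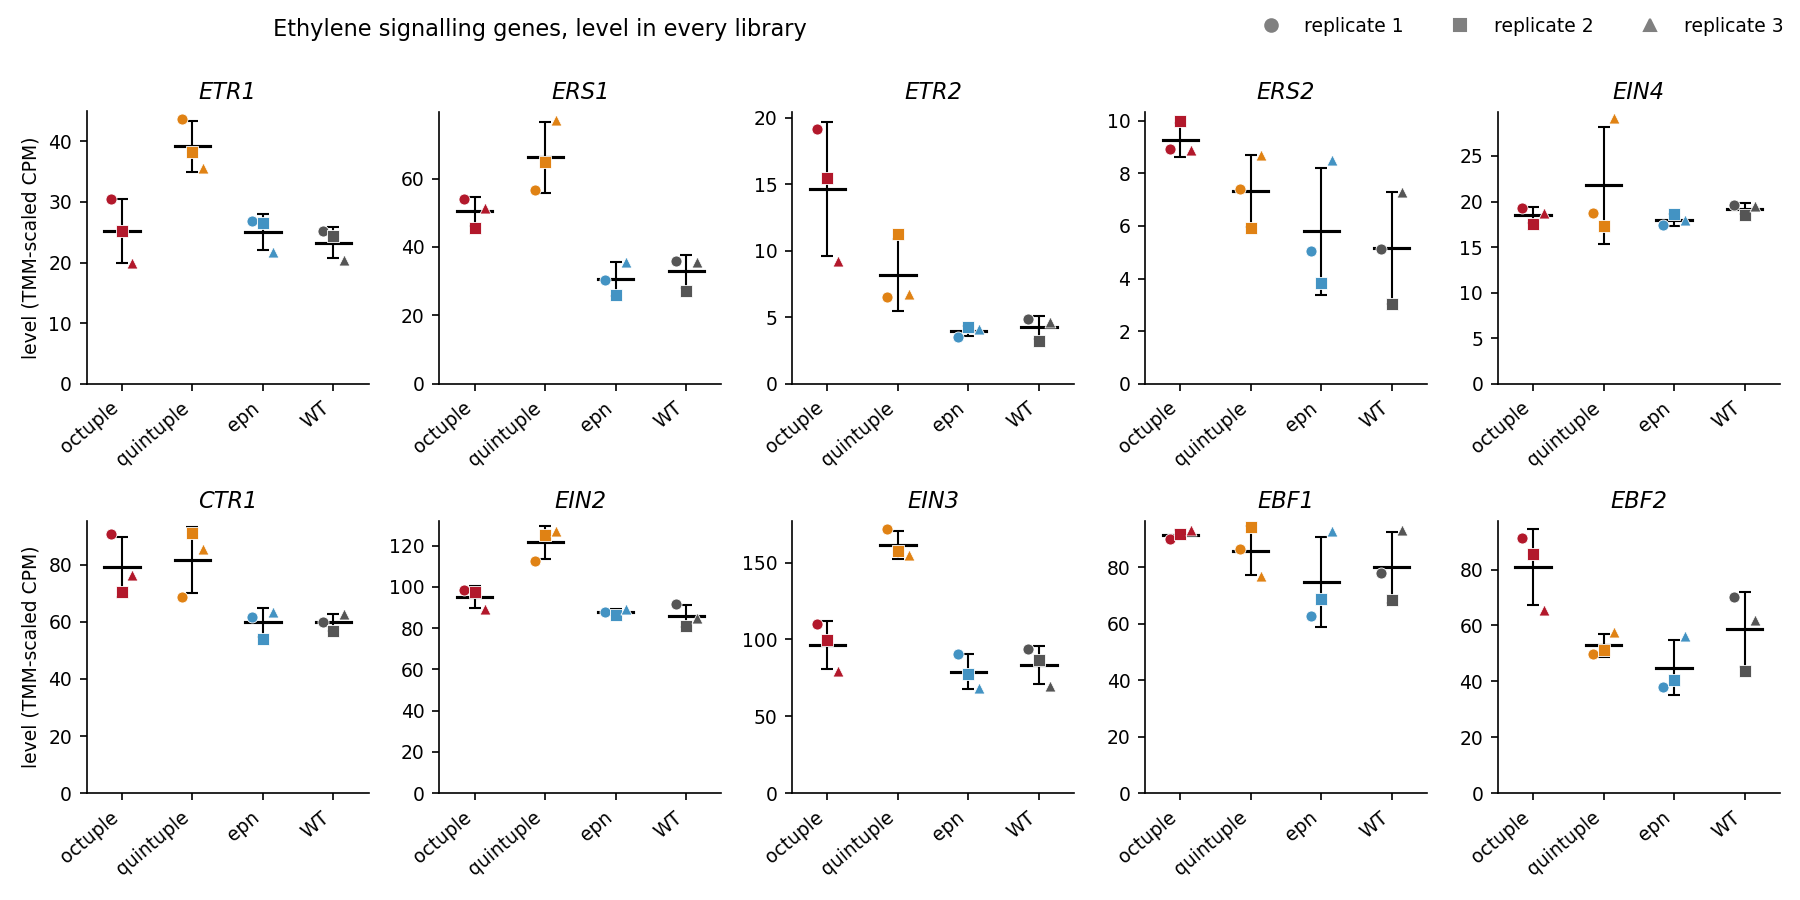
Level of each of the 10 genes in every library, in TMM-scaled CPM on a linear axis from 0, for octuple, quintuple, epn and WT from left to right. Points are libraries with a shape for each replicate number, horizontal lines are means and error bars are the SD (n = 3). The ETR2 panel has its highest points in octuple, up to 19.2 CPM, while those of ETR1, EIN2 and EIN3 have them in quintuple.

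The one comparison of ETR2 that the choice did not use, apart from epn against WT, is quintuple against WT. There ETR2 averaged 8.18 ± 2.68 CPM in quintuple and 4.24 ± 0.874 CPM in WT (SD, n = 3 each), a log2 fold change of 0.95 (SE 0.29, adjusted p = 0.0306, edgeR's quasi-likelihood test, adjusted after Benjamini and Hochberg over all genes), and all 3 quintuple libraries were above all 3 WT libraries. With the replicate number as a block the adjusted p was 0.0684. The call was also lost without quintuple replicate 2 (adjusted p = 0.0866) and without any 1 of the 3 WT libraries (adjusted p = 0.0605 to 0.103).

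Subfamily I rose in quintuple. ETR1 (AT1G66340, chr1:24734162-24737756), the founding receptor of the family, was at 43.7, 38.2 and 35.6 CPM in quintuple, against 25.1, 24.4 and 20.3 CPM in WT. ERS1 (AT2G40940, chr2:17084321-17087326), its closest relative, was at 56.6, 64.9 and 77.0 CPM in quintuple, against 35.8, 27.1 and 35.6 CPM in WT. In both genes the quintuple and WT libraries did not overlap. The log2 fold change was 0.75 for ETR1 (SE 0.14, adjusted p = 0.00513) and 1.01 for ERS1 (SE 0.18, adjusted p = 0.00386) in edgeR's quasi-likelihood test, and both passed with the replicate block and without any 1 of the 6 libraries. ERS1 was the only one of the 10 genes that also reached the 2-fold change asked of a differentially expressed gene (DEG), at 2.01-fold. It fell short of it from replicates 1 and 2 alone (log2 fold change 0.94), without WT replicate 2 (0.86), without quintuple replicate 3 (0.89) and with upper-quartile factors (0.86).

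In octuple the levels of the subfamily I genes parted. ETR1 was at 30.4, 25.3 and 19.9 CPM in octuple and at 26.9, 26.5 and 21.7 CPM in epn, ranges that overlap with each other and with WT, and its log2 fold change was 0.00 against epn (SE 0.19, adjusted p = 1.00) and 0.12 against WT (SE 0.18, adjusted p = 0.847). ERS1 was at 54.0, 45.5 and 51.5 CPM in octuple and at 30.2, 26.01 and 35.7 CPM in epn, with every octuple library above every epn and WT library. For ERS1 the log2 fold change was 0.70 against epn (SE 0.15, adjusted p = 0.0766) and 0.62 against WT (SE 0.14, adjusted p = 0.0996), short of the threshold in edgeR's quasi-likelihood test. With the replicate number as a block, ERS1 passed against both epn (log2 fold change 0.71, adjusted p = 0.00579) and WT (log2 fold change 0.63, adjusted p = 0.00321). It also passed against epn from replicates 1 and 2 alone (log2 fold change 0.83, adjusted p = 0.0447). Against quintuple ETR1 was lower in octuple by a log2 fold change of -0.61 (SE 0.19, adjusted p = 0.0344), while ERS1 changed by -0.36 (SE 0.15, adjusted p = 0.0923). The ETR1 call was lost without quintuple replicate 1 or 2 or without octuple replicate 2 or 3 (adjusted p = 0.0743 to 0.100).

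The other members of subfamily II passed in no comparison. ERS2 (AT1G04310, chr1:1154740-1157813) was at 8.92, 10.0 and 8.87 CPM in octuple, 7.40, 5.91 and 8.68 CPM in quintuple, 5.06, 3.81 and 8.49 CPM in epn and 5.13, 3.04 and 7.31 CPM in WT. All octuple libraries were above all libraries of the other 3 genotypes, by a log2 fold change of 0.84 against WT (SE 0.31, adjusted p = 0.287), 0.66 against epn (SE 0.30, adjusted p = 0.382) and 0.37 against quintuple (SE 0.19, adjusted p = 0.145), and none of these passed. Replicate 3 was the highest library of quintuple, epn and WT. EIN4 (AT3G04580, chr3:1235209-1238630) ranged from 17.5 to 19.3 CPM in octuple, 17.4 to 29.2 CPM in quintuple, 17.4 to 18.7 CPM in epn and 18.5 to 19.6 CPM in WT, and passed in 0 of the 5 comparisons of genotypes. In quintuple against WT its log2 fold change came to 0.18 (SE 0.22, adjusted p = 0.505) and -0.09 from replicates 1 and 2 alone, as quintuple replicate 3 held the highest value.

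Levels of different genes can be set beside each other only per length, and for this the FPKM values deposited by the authors were used, which are not TMM-scaled. ERS1 was the most abundant receptor and ETR1 the next in all 12 libraries, with mean FPKM of 20.2 and 8.77 in octuple, 31.4 and 16.0 in quintuple, 12.2 and 8.61 in epn and 12.9 and 7.92 in WT. ETR2 made up 7.08 to 12.3% of the summed receptor FPKM in octuple and 3.57 to 6.77% in quintuple, values that follow from the level used to choose ETR2 and are given as a description. That share was 4.04 ± 0.519% in epn and 4.20 ± 0.506% in WT (SD, n = 3 each), where ETR2 was the least abundant receptor in every library, at mean FPKM of 1.18 in epn and 1.25 in WT. The summed receptor FPKM was 38.1 to 46.3 in octuple, 52.4 to 73.8 in quintuple, 25.9 to 32.9 in epn and 24.98 to 32.9 in WT. Subfamily II made up 12.4 to 14.5 FPKM in octuple and 11.1 to 17.8 FPKM in quintuple, which overlap, whereas subfamily I made up 25.4 to 31.8 FPKM in octuple and 41.3 to 56.0 FPKM in quintuple, which do not. The subfamily II sum and the receptor sum hold ETR2, at a mean of 4.34 FPKM in octuple. They thus rest in part on the level used to choose it and are a description.

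**Figure D2:**
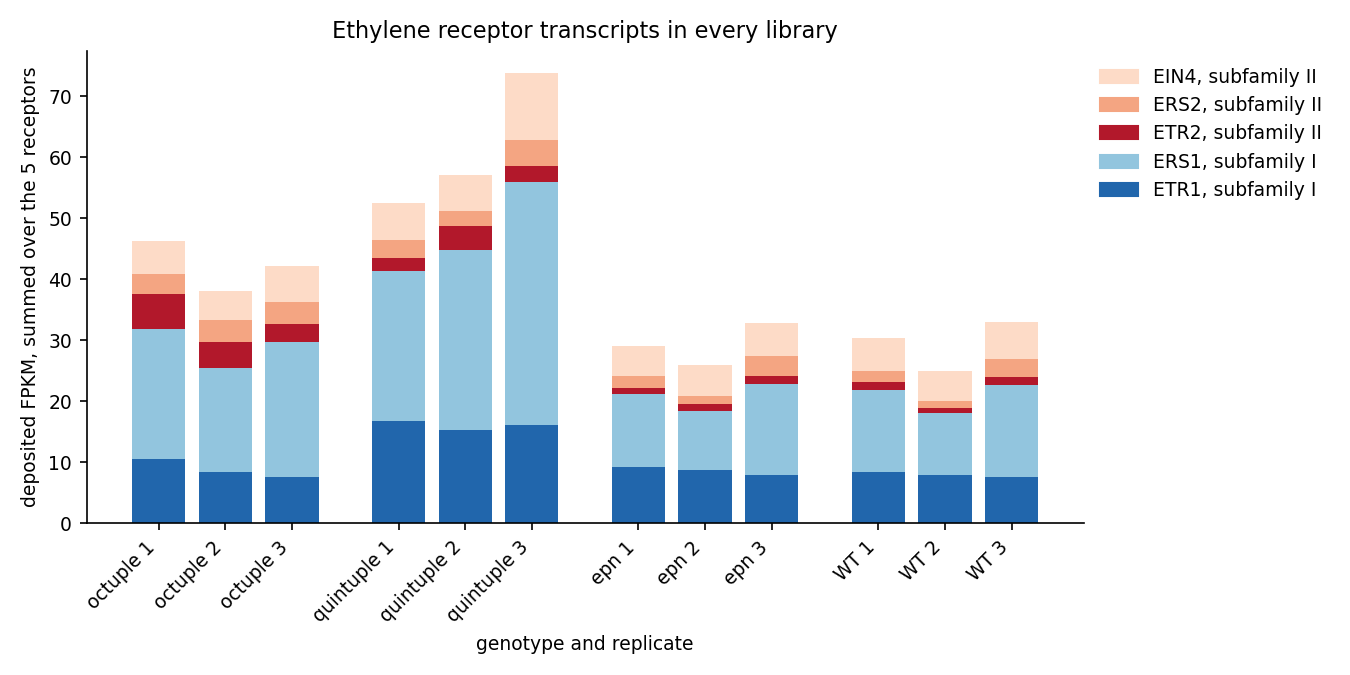
Deposited FPKM of the 5 receptor genes stacked for every library, on a linear axis from 0, with octuple, quintuple, epn and WT from left to right and the subfamily in the legend. Bar heights are the summed receptor FPKM, 38.1 to 46.3 in octuple, 52.4 to 73.8 in quintuple, 25.9 to 32.9 in epn and 24.98 to 32.9 in WT, and the tallest ETR2 segment, 5.69 FPKM, is that of octuple replicate 1.

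Behind the receptors, CTR1 and EIN2 rose in quintuple by less than 2-fold. CTR1 (AT5G03730, chr5:974360-979849), the kinase that represses the pathway, was at 68.7, 91.0 and 85.4 CPM in quintuple, against 59.9, 56.9 and 62.9 CPM in WT. EIN2 (AT5G03280, chr5:787428-793404), which carries the signal from the membrane towards the nucleus, was at 112, 125 and 127 CPM in quintuple, against 91.5, 81.0 and 84.7 CPM in WT. The quintuple libraries were all above the WT libraries in both genes. The log2 fold change was 0.45 for CTR1 (SE 0.14, adjusted p = 0.0367) and 0.50 for EIN2 (SE 0.12, adjusted p = 0.0133) in edgeR's quasi-likelihood test. The CTR1 call was lost with the replicate block (adjusted p = 0.0609), from replicates 1 and 2 alone (adjusted p = 0.0631) and without any 1 library other than quintuple replicate 1 (adjusted p = 0.0692 to 0.138), and the EIN2 call was lost without WT replicate 2 (adjusted p = 0.0717).

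In octuple, CTR1 was at 90.8, 70.3 and 76.3 CPM, against 61.8, 54.1 and 63.5 CPM in epn, without overlap. Its log2 fold change was 0.39 against epn (SE 0.15, adjusted p = 0.275) and 0.40 against WT (SE 0.12, adjusted p = 0.203), and with the replicate block it passed against WT (log2 fold change 0.40, adjusted p = 0.0256) and not against epn (adjusted p = 0.0517). EIN2 was at 98.5, 97.8 and 89.2 CPM in octuple, against 87.9, 86.4 and 89.4 CPM in epn, which overlap. Its log2 fold change was 0.10 against epn (SE 0.11, adjusted p = 0.763) and -0.32 against quintuple (SE 0.13, adjusted p = 0.0752). Against quintuple EIN2 passed as lower with DESeq2 (adjusted p = 0.0261), all 12 libraries in 1 fit (adjusted p = 0.0122), library sizes alone and limma. It did not pass with the replicate block (adjusted p = 0.117), from replicates 1 and 2 alone (adjusted p = 0.156) or in any fit without 1 library.

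EIN3 (AT3G20770, chr3:7260429-7263384), the transcription factor at the end of the pathway, rose in quintuple against WT and did not pass in octuple against epn or WT. It was at 172, 157 and 155 CPM in quintuple, against 94.0, 86.5 and 69.8 CPM in WT, a log2 fold change of 0.95 (SE 0.15, adjusted p = 0.0027) that passed with the block and without any 1 library. In octuple it was at 110, 99.7 and 79.2 CPM, against 90.9, 77.7 and 68.7 CPM in epn, ranges that overlap, with a log2 fold change of 0.28 against epn (SE 0.18, adjusted p = 0.559) and 0.21 against WT (SE 0.17, adjusted p = 0.653). Against quintuple, EIN3 was lower in octuple by a log2 fold change of -0.71 (SE 0.17, adjusted p = 0.0133) with no overlap of the libraries, and this passed without any 1 library. A share of 0.809% of the 50-base stretches of its exons also lies elsewhere in the genome, and that share was 0% for each of the other 9 genes.

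Of the F-box genes, EBF1 passed in no comparison and EBF2 was higher in octuple than in quintuple. EBF1 (AT2G25490, chr2:10847375-10850797) was at 90.2, 91.7 and 93.1 CPM in octuple, 86.4, 94.5 and 77.0 CPM in quintuple, 62.9, 68.9 and 93.0 CPM in epn and 78.2, 68.6 and 93.4 CPM in WT. These ranges overlap in all 5 comparisons, and none passed. EBF2 (AT5G25350, chr5:8794252-8797349) was at 91.3, 85.7 and 65.6 CPM in octuple, 49.8, 51.2 and 57.7 CPM in quintuple, 38.1, 40.5 and 56.1 CPM in epn and 70.1, 43.9 and 62.0 CPM in WT. The octuple libraries of EBF2 were above all quintuple and epn libraries, while WT replicate 1 was above octuple replicate 3. In quintuple against WT its log2 fold change came to -0.15 (SE 0.19, adjusted p = 0.531). In octuple it was 0.64 against quintuple (SE 0.16, adjusted p = 0.0186), 0.84 against epn (SE 0.21, adjusted p = 0.113) and 0.46 against WT (SE 0.21, adjusted p = 0.389).

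The EBF2 difference between octuple and quintuple rested on the scaling: with library sizes alone it was 0.37 (adjusted p = 0.146) while the median of all genes stood at -0.24, and with limma on log2(FPKM + 1) it was 0.36 (adjusted p = 0.131). It was also lost without quintuple replicate 1 or 2 or without octuple replicate 1 or 2 (adjusted p = 0.0537 to 0.0634). The difference from epn passed with the replicate block (log2 fold change 0.85, adjusted p = 0.0308) and from replicates 1 and 2 alone (log2 fold change 1.18, adjusted p = 0.00753). Per length, EIN3 stood at 1.33 to 1.55 times the summed FPKM of EBF1 and EBF2 in quintuple, and at 0.612 to 0.741 times that sum in octuple, 0.565 to 1.105 times in epn and 0.550 to 0.944 times in WT.

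**Figure D3:**
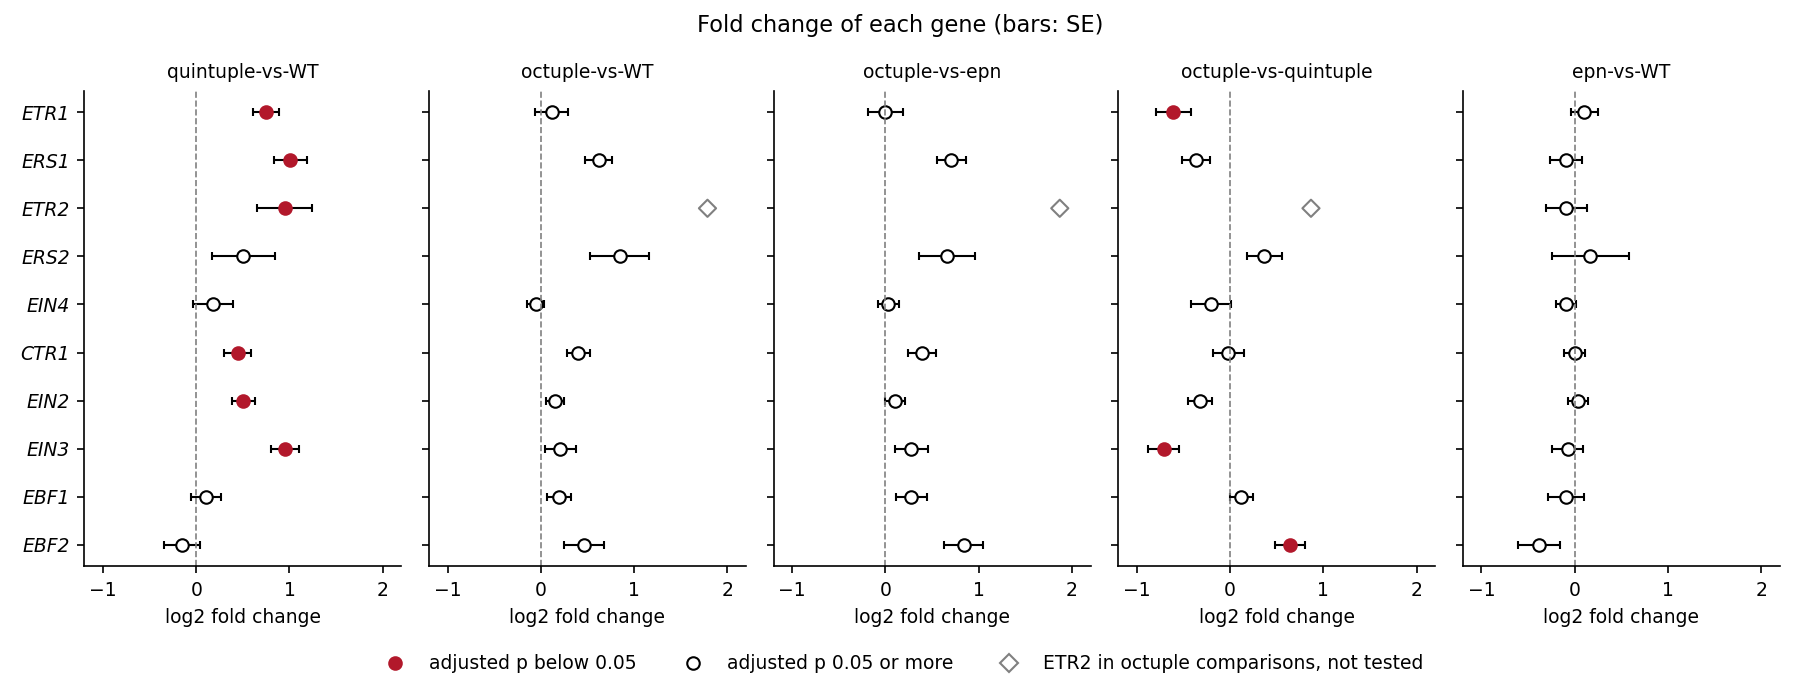
Log2 fold change of each gene in the 5 comparisons of genotypes, on a linear axis, with the first-named genotype over the second. Bars are the SE, filled points passed at an adjusted p below 0.05, open circles did not, and diamonds are ETR2 in the comparisons with octuple, which were not tested. In quintuple-vs-WT 6 points are filled, all to the right of 0, and in octuple-vs-quintuple ETR1 and EIN3 are filled on the left and EBF2 on the right.

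Counted over the genes, quintuple against WT asked what loss of the 5 CBP60 genes does to the pathway. Of the 10 genes, 6 passed as higher and 0 as lower, where 29.3% of all 19691 genes tested passed as higher and 27.7% as lower. The median log2 fold change was 0.50 over the 10 genes and 0.00 over all genes. With the replicate block 4 passed as higher (29.3% of all genes), and from replicates 1 and 2 alone 5 did (30.3% of all genes). A call of this kind was common in quintuple, and the count of 6 of 10 is not a result particular to these genes.

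Octuple against epn asked what the same loss does where EDS1, PAD4 and NDR1 are mutated, and octuple against WT asked what remains of all the mutations together. Of the 9 genes other than ETR2, 0 passed in either comparison, where 2.47% of genes were higher and 0.177% lower against epn and 1.99% were higher and 0.229% lower against WT. The median log2 fold change of the 9 genes was 0.28 against epn and 0.21 against WT, and that of all genes -0.03 and -0.01. With the replicate block 2 of the 9 passed as higher in each, ERS1 and EBF2 against epn (8.52% of all genes higher) and ERS1 and CTR1 against WT (10.0% of all genes higher). DESeq2 called ERS1 in both comparisons and EBF2 against epn.

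Octuple against quintuple asked which levels shift when EDS1, PAD4 and NDR1 are removed from the quintuple background. EBF2 passed as higher and ETR1 and EIN3 as lower, 3 of 9 genes, where 24.5% of all genes were higher and 24.1% lower. In epn against WT 0 of the 10 genes passed, with log2 fold changes from -0.38 for EBF2 to 0.17 for ERS2, where 0% of genes were higher and 0% lower, 419 of 18992 genes had an unadjusted p below 0.05, and DESeq2 called 11 higher and 36 lower, of which 0 were among the 10.

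Whether the effect of losing the CBP60 genes differed between the 2 backgrounds was tested as (octuple - epn) - (quintuple - WT) over all 12 libraries. ETR1 (log2 difference -0.74, SE 0.24, adjusted p = 0.0348) and EIN3 (-0.67, SE 0.23, adjusted p = 0.0472) passed as lower and EBF2 (1.00, SE 0.29, adjusted p = 0.0256) as higher, 3 of 9 genes, where 17.6% of all genes were higher and 14.1% lower. With the replicate block EIN2 joined them (-0.39, adjusted p = 0.047), which made 1 higher and 3 lower (23.6% and 20.2% of all genes). The calls were close to the threshold: leaving out 1 library at a time kept that of ETR1 in 3 of 12 fits, that of EIN3 in 2 and that of EBF2 in 5, and from replicates 1 and 2 alone EIN3 did not pass (adjusted p = 0.0642), which left 1 higher and 1 lower (18.3% and 11.6% of all genes). A call in this test was common over all genes, and the count of 3 of 9 is not a result particular to these genes.

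Of 9 other components of the pathway that could be tested, 4 were higher and 1 was lower in quintuple against WT, where 29.3% of all genes were higher and 27.7% lower. With the replicate block, and likewise from replicates 1 and 2 alone, 3 were higher and 2 lower. Of all genes, 29.3% were higher and 28.3% lower with the block, and 30.3% were higher and 30.0% lower from these replicates. The genes behind this change, named after their values were seen, were RTH (AT3G51040), which lost its call as higher, and ETP1 (AT3G18980), which gained one as lower. RAN1 (AT5G44790), the copper transporter that loads the receptors with their cofactor, was at 109, 104 and 115 CPM in quintuple, against 49.9, 42.4 and 37.8 CPM in WT (log2 fold change 1.33, SE 0.14, adjusted p = 0.000647). XRN4 (AT1G54490), also named EIN5, the exoribonuclease that lowers EBF1 and EBF2 RNA, and ENAP1 (AT3G11100), a protein that binds EIN2, rose by 0.67 (SE 0.11) and 1.04 (SE 0.13). EIL1 (AT2G27050), the relative of EIN3, moved the other way: it was at 32.4, 36.9 and 21.1 CPM in quintuple, against 83.5, 69.0 and 59.9 CPM in WT (log2 fold change -1.23, SE 0.24, adjusted p = 0.00567). In octuple EIL1 was at 82.6, 75.2 and 60.8 CPM, against 78.6, 68.9 and 66.1 CPM in epn, and 0 of the 9 components passed against epn or WT. Of all genes, 2.47% were higher and 0.177% lower against epn, and 1.99% were higher and 0.229% lower against WT. With the replicate block RAN1 passed as higher against WT (log2 fold change 0.30, adjusted p = 0.0321), where 10.0% of all genes were higher. Against quintuple, 1 was higher in octuple (EIL1, log2 fold change 1.30, SE 0.24, adjusted p = 0.0057) and 4 were lower, where 24.5% of all genes were higher and 24.1% lower. With the block, and likewise from replicates 1 and 2 alone, RTH lost its call as lower against quintuple and ETP1 gained one as higher. Of 3 genes that control ethylene synthesis, EOL2 was lower in quintuple against WT (log2 fold change -1.28, SE 0.26, adjusted p = 0.00662), and ETO1 and EOL1 did not pass.

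A list of genes that respond to ethylene, many of which also respond to jasmonate or to pathogens, held members that passed as higher in quintuple and in octuple and others that did not pass. In quintuple against WT 10 of 19 tested were higher and 0 lower, where 29.3% of all genes were higher and 27.7% lower, with a median log2 fold change of 1.503. With the replicate block 10 were higher and 1 lower (ORA59, log2 fold change -2.13), where 29.3% of all genes were higher and 28.3% lower. From replicates 1 and 2 alone 11 were higher and 1 lower (ERF104, log2 fold change -2.77), where 30.3% were higher and 30.0% lower. EDF1 was the gene that gained a call as higher. In octuple 7 of 20 were higher and 0 lower against epn, where 2.47% of all genes were higher and 0.177% lower. Against WT 4 of 20 were higher and 0 lower, where 1.99% were higher and 0.229% lower. The medians were 1.12 against epn and 0.87 against WT. With the replicate block 13 were higher and 1 lower against epn, where 8.52% of all genes were higher and 3.32% lower. Likewise 11 were higher and 1 lower against WT, where 10.0% were higher and 5.44% lower. The lower gene in both was ERF104 (AT5G61600), a pathogen-responsive member of the ERF family, whose log2 fold change with the block was -2.24 against epn and -3.18 against WT. It was at 1.18, 0.619 and 0.453 CPM in octuple, 4.85, 5.51 and 1.22 CPM in epn and 4.25, 27.5 and 1.87 CPM in WT. Without the block ERF104 passed in neither. From replicates 1 and 2 alone 7 of 20 were higher and 1 lower against epn (763 and 72 of 19302 genes). Against WT it was 5 and 0 (455 and 74 of 19361 genes). Against epn EDF3 lost its call as higher, PIF3 gained one and ERF104 passed as lower. PIF3 also passed against WT. CHIB (AT3G12500), a basic chitinase, was at 143, 78.5 and 47.7 CPM in octuple, 79.6, 173 and 107 CPM in quintuple, 1.02, 0.657 and 0.847 CPM in epn and 1.22, 0.904 and 0.733 CPM in WT. PR4 (AT3G04720), a hevein-like protein, was at 512, 319 and 268 CPM in octuple, 422, 681 and 391 CPM in quintuple, 51.1, 44.4 and 30.2 CPM in epn and 53.8, 43.1 and 26.2 CPM in WT. Both were higher in octuple against epn (log2 fold change 6.73, SE 0.52, and 3.12, SE 0.33) and in quintuple against WT (6.97, SE 0.42, and 3.60, SE 0.37), while against quintuple neither passed in octuple.

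Other ethylene-responsive genes split between octuple and quintuple, with 3 of 20 higher and 6 lower in octuple, where 24.5% of all genes were higher and 24.1% lower. With the block, and likewise from replicates 1 and 2 alone, ERF104 lost its call as lower and PDF1.2A (AT5G44420), named after its values were seen, gained one as higher. ERF11 (AT1G28370), a repressor of the ERF family, was at 8.51, 8.52 and 6.28 CPM in octuple, against 39.2, 34.1 and 15.6 CPM in quintuple (log2 fold change -1.90, SE 0.36, adjusted p = 0.00614). Its octuple libraries were still above those of epn (0.282 to 0.530 CPM) and WT (0.402 to 2.36 CPM). ORA59 (AT1G06160), an activator of defensin genes, was at 2.99, 2.03 and 1.53 CPM in octuple, against 0.195, 0.779 and 0.116 CPM in quintuple (log2 fold change 2.62, SE 0.73, adjusted p = 0.025). PDF1.2B (AT2G26020), a defensin gene with near-identical copies among which reads may be split, was at 10.3, 3.39 and 1.17 CPM in octuple, against 0.708, 0.0916 and 0 CPM in quintuple. HLS1 (AT4G37580), which shapes the apical hook, was at 3.04, 3.44 and 4.40 CPM in octuple, against 1.37, 1.17 and 0.793 CPM in quintuple (log2 fold change 1.74, SE 0.31, adjusted p = 0.00513).

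**Figure D4:**
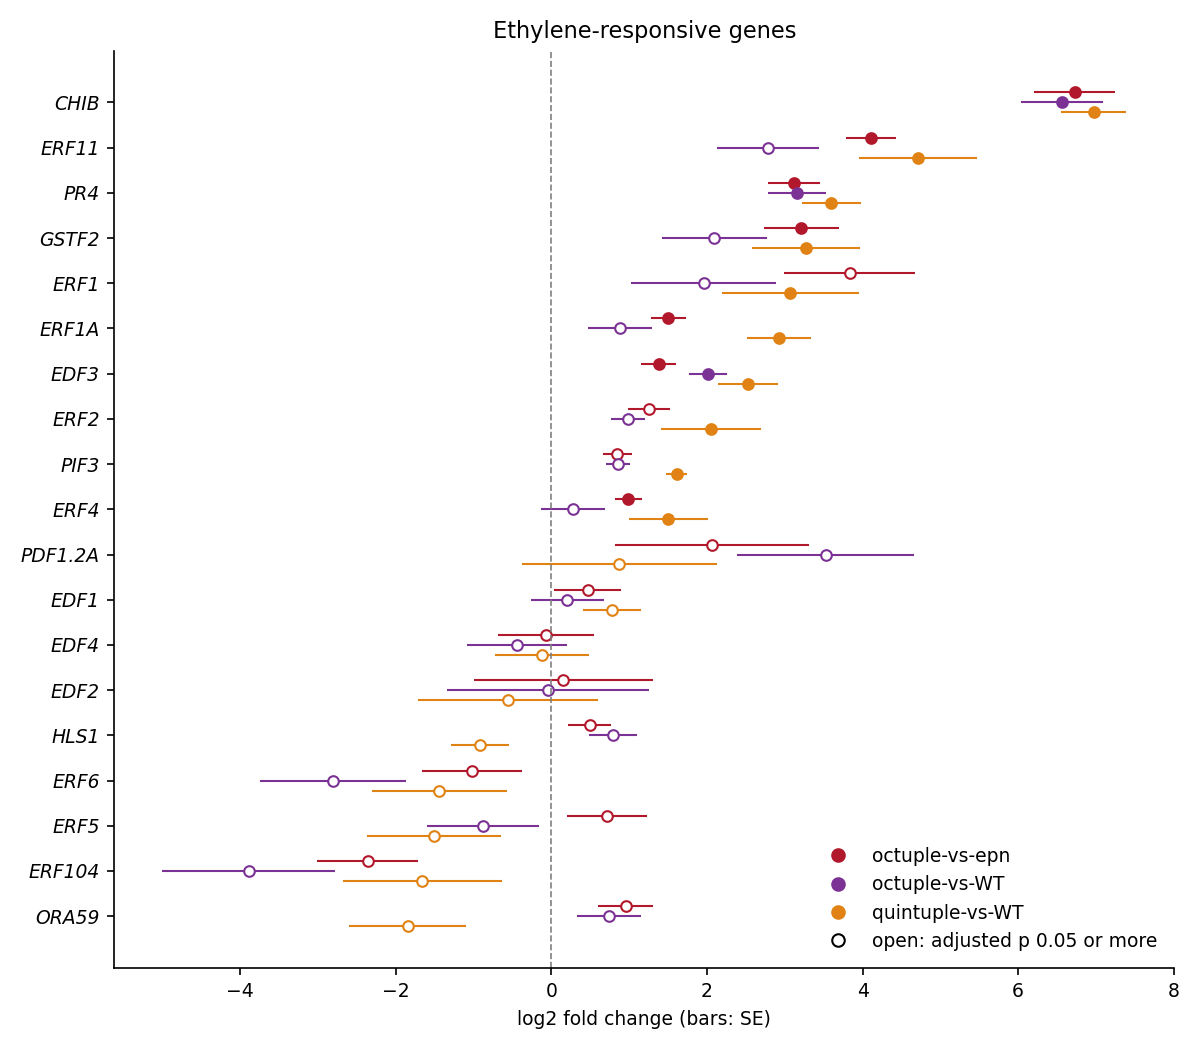
Log2 fold change of the ethylene-responsive genes in octuple-vs-epn, octuple-vs-WT and quintuple-vs-WT, on a linear axis with bars for the SE, ordered by the value in quintuple-vs-WT. Filled points passed at an adjusted p below 0.05. CHIB, PR4 and EDF3 are filled in all 3 comparisons, and PDF1.2B is left out because its WT libraries held next to no counts. From replicates 1 and 2 alone EDF3 did not pass in octuple-vs-epn.

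The genes whose log2 CPM over the 12 libraries was most like that of ETR2 were CYP708A3 (AT1G78490, Pearson r = 0.97), AT2G14900 (r = 0.94), FLR1 (AT3G12145, r = 0.93), PTR5 (AT5G01180, r = 0.92) and AT5G24010 (r = 0.92), among 16368 other genes with a mean of at least 100 counts. The 5 genes all had their highest mean in octuple, for example 152 CPM in octuple, 88.4 CPM in quintuple, 26.6 CPM in epn and 20.5 CPM in WT for FLR1. Since they were ranked by likeness to ETR2, which was chosen for its level in octuple, this follows from the selection. Within the pathway the values of r with ETR2 were 0.80 for CTR1, 0.76 for EBF2, 0.69 for ERS1, 0.66 for ERS2, 0.63 for EBF1, 0.49 for EIN2, 0.42 for EIN3, 0.29 for ETR1 and -0.00 for EIN4. The points share genotypes and replicate numbers, so these values describe the 12 libraries and carry no test.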

How the data were processed

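RNA-seq of aerial seedling tissue was analysed for octuple, quintuple, epn and WT, with 3 libraries each. The authors deposited gene-level counts, not normalized, and also FPKM values made from those counts and gene lengths. Per the submitters' processing notes HISAT2, HTSeq and R 3.2.0 were used. The strand setting is not given in the sources used here, so ETR1, ERS1 and EBF2, which overlap neighbouring genes, may hold reads of those. The build is not named, but the gene lengths implied by counts and FPKM equalled the merged exon lengths of RefSeq TAIR10.1 for all 23784 genes (tolerance 0.5 bases), which was used for positions and promoter sequence.

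Each comparison was fitted on its 6 libraries with edgeR 4.0.16 in R 4.3.3 (TMM scaling, filterByExpr, quasi-likelihood test), and the interaction on all 12. A gene passed at a Benjamini-Hochberg adjusted p below 0.05 over all genes tested, and a DEG also changed at least 2-fold. The SE was the log2 fold change divided by the root of the F statistic. All 10 genes passed the filter on low counts in every comparison. DESeq2 1.42.0, limma 3.58.1 on log2(FPKM + 1), other scalings, no filter, the replicate block, all libraries in 1 fit and leaving out each library were alternatives, and replicates 1 and 2 alone were added after seeing the data. The fitting procedure was tested on simulated counts. Library deviations from the genotype mean correlated at 0.27 to 0.876 in the 18 pairs with equal replicate numbers from different genotypes and at -0.698 to 0.361 in the 36 unlike-numbered pairs. By this measure the numbers pair the samples in these data, though no label says what they share. No 2 libraries were copies. The study calls the replicates independent.

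The 10 genes and the lists of other genes were chosen with earlier results of these data known, ETR2 for its level in octuple. All 10 genes are named, and of each list at most 3 genes per direction with the largest changes among those that passed in a comparison. Other genes were named after their values were seen, where a call changed or to describe a marker sum. The 5 genes most like ETR2 were taken by Pearson r of log2 CPM with a prior count of 2. Of 62 listed genes, 61 were in the counts.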

Additional observations from a re-analysis of the deposited data

Results flagged for a closer look

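The effect of losing the CBP60 genes differed between the eds1;pad4;ndr1 background and the WT background for 3 of the 9 genes tested, by the test of the difference (octuple - epn) - (quintuple - WT) in edgeR. The log2 difference was -0.74 for ETR1, -0.67 for EIN3 and 1.00 for EBF2. Among the other components it was 1.26 for EIL1 (adjusted p = 0.00907), -0.73 for XRN4 (adjusted p = 0.00694), -1.004 for RAN1 (adjusted p = 0.00406) and -0.85 for ENAP1 (adjusted p = 0.00669). Among the ethylene-responsive genes it was 2.81 for ORA59, -1.42 for ERF1A, 1.42 for HLS1 and -0.76 for PIF3, and it was 1.21 for EOL2, which controls ethylene synthesis. Leaving out 1 library at a time kept the call of ETR1 in 3 of 12 fits, that of EIN3 in 2 and that of EBF2 in 5. From replicates 1 and 2 alone EIN3, ERF1A, HLS1 and PIF3 did not pass (adjusted p = 0.0642, 0.0879, 0.105 and 0.189). ETP1 passed as higher only from these replicates (log2 difference 0.73, adjusted p = 0.0114). These genes were chosen with earlier results known, and 17.6% of all genes passed as higher and 14.1% as lower in this test. A call in it was thus common, and the count of 3 of 9 is not a result particular to these genes. With 3 libraries per genotype no test for single outlying libraries was made.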

How the results depend on the processing

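Of the values of single genes under alternatives, 868 kept their side of the threshold or, for ETR2 with octuple, stayed within 1 SD, 58 lost and 22 gained a call, 2 (ETR2 in octuple against WT and against epn, with limma) moved further, and 0 of those that passed changed sign. Of those that did not pass, 20 changed sign under at least 1 alternative, each at most 0.21 from 0 on the log2 scale as reported, among them EIN4, EBF1 and EBF2 in quintuple against WT. The number of genes passing in quintuple against WT was 6, and 3 with upper-quartile factors, which shifted the median of all genes by -0.15, while with library sizes alone 6963 genes were higher and 3925 lower, against 5767 and 5445 with TMM. In octuple against WT it was 0, against 1 with DESeq2 and 2 with the replicate block. In octuple against epn it was 0, against 2 with DESeq2, with the replicate block, with all 12 libraries in 1 fit and from replicates 1 and 2 alone. In the interaction it was 3, against 1 with upper-quartile factors. In octuple against quintuple library sizes alone gave 0 higher and 4 lower in place of 1 and 2. There DESeq2 and all 12 libraries in 1 fit each gave 1 higher and 3 lower, and limma gave 0 and 3. Leaving out 1 library at a time gave 3 to 6 in quintuple against WT, 0 in octuple against WT and against epn, 1 to 3 in octuple against quintuple, 0 in epn against WT and 0 to 3 in the interaction. The replicate block changed no call of the 10 genes other than those given for ETR2, ERS1, CTR1, EIN2 and EBF2.

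With 3 libraries per genotype a missed threshold does not show equal levels. Several calls had adjusted p-values close to the threshold and depended on 1 library, as given for ETR2, CTR1, EIN2, ETR1 and EBF2. At this depth counting error is small, except for genes near 0 CPM. What sets replicate 3 apart was not tested.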
